A study of Mus musculus with 12 samples.

Results

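The genes described here encode the eukaryotic translation initiation factors of the mouse. They were chosen by name: every protein-coding row of the deposited gene table whose symbol begins with Eif followed by a digit from 1 to 6, without the eIF2 kinases (Eif2ak genes) and without the Y-linked copy Eif2s3y. The rule gave 50 genes of the 54532 in the table, of which 22046 are protein-coding, and it used no measured value. Of the 50 genes, 47 had a mean of at least 1 FPKM (fragments scaled by transcript length and library size) over all libraries and were tested among 9743 genes. The 3 others, Eif4e1b, Eif4ebp3 and Eif5a2, lay under that filter and are given by their values only.

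The libraries are bulk RNA-seq of primary hepatocytes from 6-week-old mice, 12 in 4 groups of 3. G3bp1-Flox mice (Flox) are the controls and G3bp1-HKO mice (HKO) carry a hepatocyte-specific G3bp1 knockout. Cells of each genotype received BSA or PA, which gives Flox_BSA, Flox_PA, HKO_BSA and HKO_PA. The labels do not spell out BSA and PA, and the Cre driver, the dose and duration, and whether the 3 libraries of a group came from separate mice are not stated in the labels used here, so p-values reflect the spread among these libraries alone. The stated aim was to learn how G3BP1 acts in the liver disease NASH; its protein binds RNA and seeds stress granules.

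Each library held between 15.02 and 18.42 M reads in genes (M, 10 to the power 6), and the initiation factor genes took 1.23% to 1.48% of them. G3bp1 measured 41.16 ± 4.11 FPKM (Flox_BSA), 39.89 ± 1.52 (Flox_PA), 8.248 ± 0.413 (HKO_BSA) and 7.502 ± 0.54 (HKO_PA) as mean ± SD with n = 3. In limma it was lower in HKO by a log2 change of -2.19 in BSA (adjusted p = 3.5e-09) and -2.27 in PA (adjusted p = 3.31e-09). The defining hepatocyte markers were present throughout: 9 genes, Alb and Ttr among them, summed to 10450 to 11710 FPKM with Flox and 16980 to 31630 FPKM with HKO. All 14 macrophage and Kupffer cell markers were lower in HKO in both treatments, with sums of 1929 to 2363 FPKM in Flox libraries against 86.1 to 158.2 FPKM in HKO libraries. Neutrophil markers summed to 16.86 to 25.36 FPKM for Flox and at most 0.7376 FPKM for HKO, where Retnlg and S100a9 were listed at 0. In bulk RNA, fewer cells of a type and less RNA per cell cannot be told apart, and the part of these cells in the genotype differences below was not tested. The share of reads in mitochondrial genes was 2.21% to 4.34% for Flox and 4.1% to 8.2% for HKO. The HKO libraries numbered 1 stood apart for many initiation factor genes. Among genes of lower GC content, HKO_BSA 1 was mostly on the low side and HKO_PA 1 on the high side. For others the order differed: HKO_BSA 1 was the highest library for Eif5a (1145 FPKM) and Eif6 (668.8 FPKM). HKO_PA 1 was the lowest library for Eif4g1 (37.93 FPKM). For each comparison of treatment or genotype, the count of initiation factor genes is given with and without both of these HKO libraries. Many, but not all, of the single results that rest on these libraries are given in the same way.

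Translation begins when eIF2, carrying the initiator tRNA and GTP, joins the small ribosomal subunit with eIF1, eIF1A, eIF3 and eIF5. The eIF4 group brings that complex to the capped mRNA: eIF4E binds the cap, eIF4G is the scaffold and eIF4A is the RNA helicase. After the start codon is found, eIF5B joins the large subunit. Stress kinases phosphorylate the alpha subunit of eIF2, which blocks the exchange factor eIF2B and lowers initiation, and stalled initiation complexes gather with G3BP1 in stress granules. mTORC1 controls the other gate by phosphorylating the eIF4E-binding proteins.

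Promoter sequences from RefSeq (build GRCm38.p6) were found for 38 of the 50 genes. Each letter string was searched on both strands in the 250 bases before a start, and a match is a description of these letters only. The E-box CACGTG, the string bound by MYC and related factors, was in 9 of 38 initiation factor genes (23.7%) and in 6.86% of 27025 genes in the promoter table. The ETS string CCGGAAG was in 12 of 38 (31.6%) against 7.83%, the GC box GGGCGG in 29 of 38 (76.3%) against 35.4%, the string TGACGT in 7 of 38 (18.4%) against 7.29%, and CCAAT in 12 of 38 (31.6%) against 37.5%. The E-box windows shown, with the E-box in capitals, are those of eIF4E, its scaffold eIF4G1, the helicase eIF4A1 and the helicase cofactor eIF4H. The string was also in Eif1b, Eif3f, Eif3k, Eif5a and Eif5a2. It is not a shared trait of the cap-binding group: Eif4a2, Eif4a3, Eif4b, Eif4e2 and Eif4g3 had promoter sequences without it. In Eif4e the string starts 228 bases before the start at chr3:138527028-138527057 and again 64 bases before it at chr3:138527192-138527221 (plus strand). In Eif4g1 it lies 54 bases before the start at chr16:20672661-20672690 (plus), in Eif4a1 189 bases before it at chr11:69672595-69672624 (minus) and in Eif4h 96 bases before it at chr5:134639488-134639517 (minus).
Eif4e, far E-box: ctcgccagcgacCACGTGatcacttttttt
Eif4e, near E-box: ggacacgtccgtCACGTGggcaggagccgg
Eif4g1: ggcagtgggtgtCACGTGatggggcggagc
Eif4a1: cgatcgcctccgCACGTGtaaaggtgctgg
Eif4h: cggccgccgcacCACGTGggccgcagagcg

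Of the genes whose levels changed in the comparisons below, the 60 bases before the start are shown for Eif3a, which was lower, and for Eif1ax and Eif4a1, which were higher. They lie at chr19:60790694-60790753 (minus), chrX:159372118-159372177 (plus) and chr11:69672424-69672483 (minus). Capitals mark the strings named above on either strand. The Eif1ax window is a run of GC boxes, Eif3a holds 1 GC box near its start, and Eif4a1 holds a CCAAT and the reverse complement of TGACGT.
Eif3a: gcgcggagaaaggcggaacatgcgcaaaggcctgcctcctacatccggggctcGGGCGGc
Eif1ax: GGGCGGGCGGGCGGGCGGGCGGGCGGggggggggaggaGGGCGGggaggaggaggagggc
Eif4a1: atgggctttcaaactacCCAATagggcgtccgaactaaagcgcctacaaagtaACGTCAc

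The hepatocytes expressed nearly the whole initiation machinery, over a wide range of levels per transcript length. Of the 50 genes, 40 had a mean of at least 10 FPKM, 7 of at least 100 FPKM and 5 of at least 300 FPKM. Eif5a, whose product helps the ribosome past stalling sequences, was highest at 941.7 FPKM over all libraries, followed by Eif6, which keeps large subunits apart from small ones, at 468.2 FPKM. Eif1, Eif4ebp1 and Eif4a1 came next at 463.2, 402.5 and 310.3 FPKM. Eif5a and Eif6 passed in no comparison, and in them each group mean lay between 900.2 and 973.0 FPKM and between 440.0 and 496.2 FPKM.

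**Figure D1:**
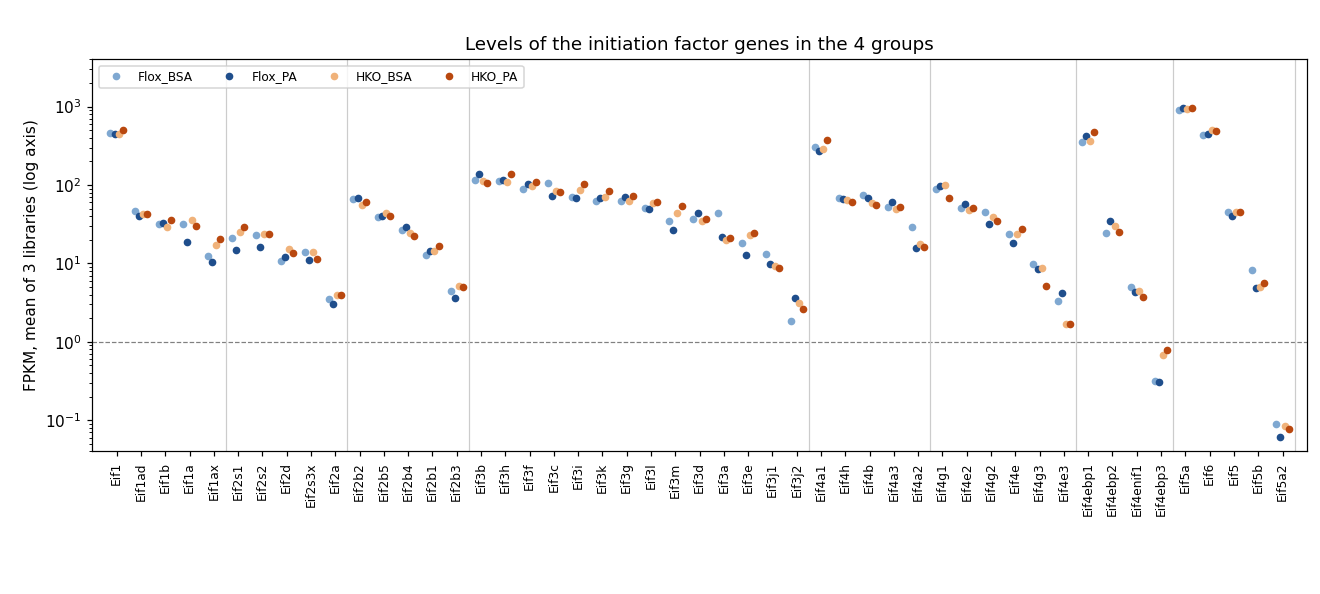
Mean FPKM of 3 libraries per group (log axis) for the 49 initiation factor genes above 0, ordered by role and, within a role, by level; the dashed line is the filter at 1 FPKM. The 4 groups lie close together for most genes, with Eif5a at the top and Eif5a2 and Eif4ebp3 under the line.

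The lowest of the tested genes that passed nowhere were Eif3j2, a single-exon copy of the eIF3j gene, at 2.807 FPKM, and Eif2a, which can deliver initiator tRNA without eIF2, at 3.635 FPKM. Eif3j2 ranged from 0.4284 to 6.446 FPKM with no order by group, and its reads cannot be parted with certainty from those of Eif3j1. Under the filter, the oocyte cap-binding gene Eif4e1b was listed at 0 in all 12 libraries. The second eIF5A gene, Eif5a2, ranged from 0.02222 to 0.192 FPKM. The eIF4E-binding gene Eif4ebp3 ranged from 0.1404 to 1.0 FPKM, with means of 0.3171 and 0.306 FPKM in Flox_BSA and Flox_PA and 0.6722 and 0.7783 FPKM in HKO_BSA and HKO_PA. Of its exon bases 67.3% are shared with another gene on the same strand, so this difference cannot be given to Eif4ebp3 with certainty.

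PA against BSA in Flox cells, the first comparison, changed 1 initiation factor gene. Eif3a, the scaffold subunit of eIF3, fell by 0.98 on the log2 scale, to a fold of 0.508 (SE 0.21, limma adjusted p = 0.0303), and 46 of 47 genes did not pass. That is 2.13% of the initiation factor genes against 2.21% of all genes tested, and by direction 0 higher against 1.29% and 1 lower against 0.913%. The median log2 change was -0.03 over the initiation factor genes and 0.02 over all genes tested, and 9 genes had an unadjusted p under 0.05. When only the 6 Flox libraries were fitted, 11 genes passed, 10 of them lower, against 15.8% of all genes in that fit. With both HKO libraries numbered 1 left out, 9 passed, 8 of them lower, which is 19.1% of the initiation factor genes against 13.9% of all genes in that fit. In the main fit the 4 groups share 1 estimate of the spread per gene, so the HKO libraries enter these p-values. The median log2 change of the initiation factor genes was -0.03 in each of these fits.

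PA against BSA in HKO cells changed none of the 47 genes in limma, against 2.94% of all genes (1.68% higher and 1.25% lower). An unadjusted p under 0.05 was found for 5 genes, and limma-voom on computed reads also called 0. The median log2 change was 0.01, against 0.00 over all genes. The lowest p belonged to Eif4g3, a scaffold of the cap complex, with a log2 change of -0.69 (SE 0.19, adjusted p = 0.0713). With both HKO libraries numbered 1 left out, 4 genes passed, 8.51% against 6.97% of all genes in that fit: Eif1a, Eif3e and Eif4a2 lower, and Eif4ebp1 higher.

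HKO against Flox in BSA changed 4 of 47 genes, 8.51% against 20.5% of all genes tested. Higher was 1 gene, Eif2d (against 9.63% of all genes), and lower were 3, Eif3a, Eif4a2 and Eif4e3 (against 10.8%). The median log2 change was -0.04 over the initiation factor genes and 0.04 over all genes. The direction of the calls moved with the scaling: 7 genes, all lower, passed on TPM (transcripts per M, each library rescaled to the same sum) and likewise in limma-voom, a fit on the computed reads, against 20.2% and 20.4% of all genes. TPM and limma-voom lowered the median of all genes by more than 0.1, to -0.13 in each. With a trend on GC content removed 8 passed, 1 higher and 7 lower, against 27.3% of all genes, whose median was then -0.01. Without both HKO libraries numbered 1, 13 genes passed, 8 higher and 5 lower, 27.7% against 36.7% of all genes in that fit.

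HKO against Flox in PA changed 8 of 47 genes, 17% against 35.7% of all genes tested. Higher in HKO were 5, against 16.9% of all genes: Eif1ax, Eif2s1, Eif3i, Eif3m and Eif4a1. Lower were 3, against 18.8%: Eif2b4, Eif4e3 and Eif4g3. The median log2 change was 0.09, against 0.00 over all genes, and 14 genes had an unadjusted p under 0.05. The split of the calls moved with the scaling. More were lower than higher with quantile normalization (5 higher and 10 lower, against 38.9% of all genes called), on TPM (1 and 13, against 42.4%) and in limma-voom (4 and 9, against 37.6%). The median of all genes was 0.05 with quantile normalization, -0.27 on TPM and -0.16 in limma-voom. The split was even with trimmed-mean scaling (5 and 5, against 36.7% of all genes) and with a length trend removed (6 and 6, against 34.7%). Without both HKO libraries numbered 1, 13 genes passed, 8 higher and 5 lower, 27.7% against 37.6% of all genes in that fit.

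The interaction, the PA effect in HKO minus that in Flox, passed for 0 of 47 genes in limma and in limma-voom, against 0.267% of all genes (0.164% higher and 0.103% lower). An unadjusted p under 0.05 was found for 6 genes. The largest positive estimate was 1.05 for Eif3a (SE 0.30, adjusted p = 0.13) and the lowest p among negative estimates was that of Eif4ebp2 (log2 -0.73, SE 0.27, adjusted p = 0.21). Thus no difference in the PA effect between genotypes was detected for an initiation factor gene. Over all comparisons 13 pairs of gene and comparison passed, in 11 genes. Eif3a and Eif4e3 passed in 2 comparisons each, and 36 tested genes passed in none. Without both HKO libraries numbered 1, 13 of 13 pairs passed, in a fit that also called more of all genes (36.7% against 20.5% for the genotype in BSA). That fit leaves out libraries that stood apart in these same data. With single libraries left out, the pairs that passed ran from 3 of 9 (without Flox_PA 3) to 8 of 8 (without HKO_PA 3). The comparisons share libraries, so their values are set side by side below and not correlated.

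**Figure D2:**
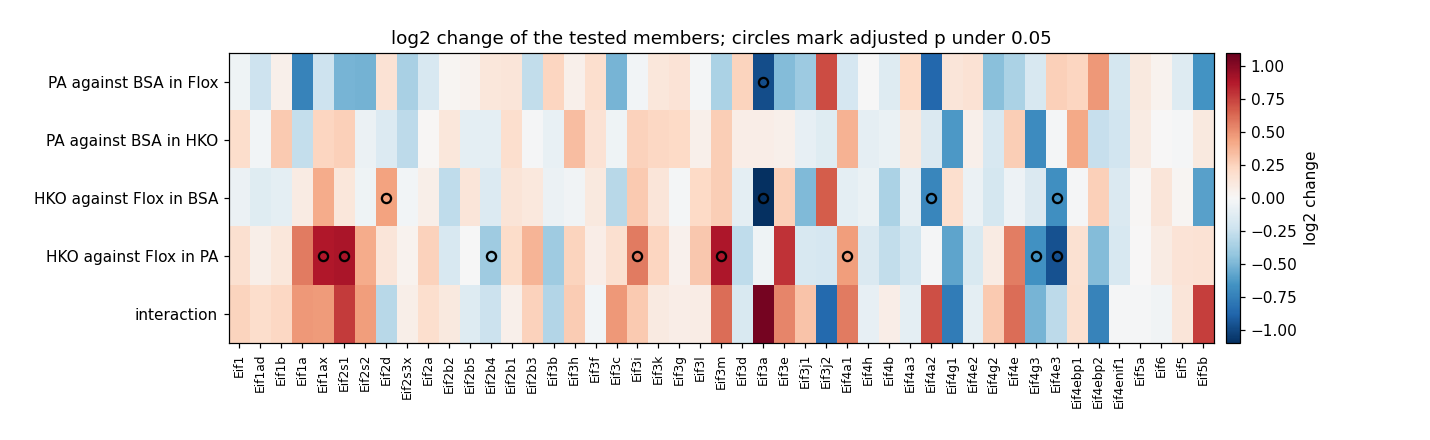
Log2 change on the log2(FPKM + 1) scale of the 47 tested initiation factor genes (columns, by role) in the 5 comparisons (rows); red is higher, blue is lower, and circles mark adjusted p under 0.05. The circles number 1, 0, 4, 8 and 0 from the top row down.

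Of the genes for the start codon scanning factors eIF1 and eIF1A, the X-linked eIF1A gene passed, in 1 comparison. Eif1ax (chrX:159372178-159389928, plus strand) measured 12.17, 11.14 and 13.57 FPKM (Flox_BSA) and 10.64, 9.723 and 10.59 (Flox_PA). In HKO it measured 11.11, 19.46 and 21.14 FPKM with BSA and 27.97, 17.26 and 16.1 with PA. Every HKO_PA library lay above every Flox library, while HKO_BSA 1 lay among the Flox values. The log2 change of HKO against Flox in PA was 0.88 (SE 0.23, adjusted p = 0.00943) and 0.64 without HKO_PA 1 (adjusted p = 0.0405; leaving out HKO_BSA 1 as well gave 0.00042). Its near-identical autosomal copy Eif1a had means of 31.7 ± 1.82, 18.78 ± 3.61, 35.69 ± 13.1 and 29.94 ± 12.7 FPKM in Flox_BSA, Flox_PA, HKO_BSA and HKO_PA and passed in none. Reads shared by these copies could be split between them. Eif1 and its paralog Eif1b differed in level by more than their spread, with group means of 441.1 to 506.9 FPKM and 29.41 to 35.83 FPKM, and neither passed. Xist was listed at 0 in all 12 libraries and the Y-linked Eif2s3y ranged from 1.94 to 6.779 FPKM in them.

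Among the subunits of eIF2, the gene of the alpha subunit passed, as higher in HKO with PA. Eif2s1 (chr12:78861819-78887010, plus strand) encodes the subunit that stress kinases phosphorylate. It measured 20.73, 19.65 and 23.35 FPKM (Flox_BSA), 16.42, 14.45 and 13.04 (Flox_PA), 13.04, 28.95 and 32.67 (HKO_BSA) and 40.72, 25.48 and 20.94 (HKO_PA). All HKO_PA libraries were above all Flox_PA libraries, and the HKO_BSA values ran from the lowest Flox value to above the highest. The log2 change was 0.89 (SE 0.29, adjusted p = 0.0279). The call was lost without HKO_PA 1 (log2 0.63, adjusted p = 0.129), Flox_PA 2 (adjusted p = 0.0695) or Flox_PA 3 (adjusted p = 0.0926) and on TPM (log2 0.62, adjusted p = 0.0888), and held without both HKO libraries numbered 1 (adjusted p = 0.0019). In that last fit Eif2s1 also passed as higher in HKO with BSA and as lower with PA in Flox. Its interaction estimate was 0.77 (SE 0.41, adjusted p = 0.332), so a difference between the treatments in the genotype effect was not shown. The beta subunit gene Eif2s2 had means of 23.25, 16.08, 23.39 and 23.63 FPKM and the gamma subunit gene Eif2s3x 14.16, 10.91, 14.08 and 11.28 FPKM in Flox_BSA, Flox_PA, HKO_BSA and HKO_PA, and neither passed.

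Eif2d, whose product can bring initiator tRNA to the ribosome without eIF2, was the 1 initiation factor gene that passed as higher in HKO with BSA. It lies at chr1:131153181-131187658 (plus strand). Its levels were 11.14, 10.5 and 10.75 FPKM (Flox_BSA), 11.71, 12.69 and 12.08 (Flox_PA), 17.33, 13.71 and 14.31 (HKO_BSA) and 13.74, 12.77 and 13.85 (HKO_PA). Every HKO library was above every Flox library. The log2 change was 0.44 in BSA (SE 0.12, adjusted p = 0.0162), lost without Flox_BSA 1 (adjusted p = 0.0501) or Flox_BSA 2 (adjusted p = 0.0695), on TPM (log2 0.27, adjusted p = 0.157) and in limma-voom (log2 0.31, adjusted p = 0.113).

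Of the 5 subunit genes of eIF2B, which recharges eIF2 with GTP, 1 passed in the main fit, in 1 comparison. Group means were 12.95 to 16.5 FPKM for Eif2b1, 55.65 to 68.15 for Eif2b2, 3.594 to 5.215 for Eif2b3 and 39.58 to 43.52 for Eif2b5, and these 4 passed in no comparison of the main fit. Eif2b2 was called lower in HKO in 8 of 20 alternatives with BSA (main log2 -0.28) and in 4 of 20 with PA (main log2 -0.17). Eif2b4, the delta subunit (chr5:31187558-31193430, minus strand), measured 26.61, 25.22 and 28.21 FPKM (Flox_BSA), 29.46, 29.66 and 28.49 (Flox_PA), 29.23, 20.67 and 22.65 (HKO_BSA) and 21.19, 20.0 and 25.4 (HKO_PA). The HKO_PA libraries lay below the Flox_PA libraries by a log2 change of -0.39 (SE 0.14, adjusted p = 0.0469). Leaving out any of Flox_PA 1, 2, 3 or HKO_PA 1, 2 ended the call, with adjusted p from 0.0991 to 0.146, and so did removal of a GC trend (log2 -0.20, adjusted p = 0.0791). Of its exon bases 7.85% overlap Snx17 on the opposite strand, and no source used here says whether the authors counted by strand.

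In eIF3, the large complex that holds the small subunit, 14 genes were tested and 3 changed in at least 1 comparison. By comparison, the share called was 7.14% for PA in Flox (2.21% of all genes) and 0 for PA in HKO (2.94%). For the genotype it was 7.14% in BSA (20.5% of all genes) and 14.3% in PA (35.7%). Eif3a (chr19:60761116-60790693, minus strand) was high only in Flox_BSA, where it measured 47.68, 51.72 and 32.06 FPKM. It measured 27.89, 21.44 and 16.12 FPKM (Flox_PA), 21.8, 19.39 and 17.76 (HKO_BSA) and 18.61, 25.3 and 18.63 (HKO_PA). All 3 Flox_BSA libraries lay above the other 9. The difference of HKO from Flox in BSA was a log2 change of -1.09 (SE 0.21, adjusted p = 0.00194), which passed in 20 of 20 alternatives. Both calls of this gene rest on the same Flox_BSA libraries. The PA change in Flox (log2 -0.98) was lost without Flox_BSA 1, Flox_BSA 2, Flox_PA 2 or Flox_PA 3, with adjusted p from 0.127 to 0.17, and with a GC trend removed (log2 -0.80, adjusted p = 0.0829). In HKO the PA change was 0.07 and did not pass, and in PA the genotypes differed by -0.04.

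Eif3m and Eif3i, a subunit of the eIF3 core and a subunit of its mobile module, were higher in HKO with PA. Eif3i (chr4:129591960-129600648, minus strand) measured 66.33, 67.53 and 74.75 FPKM (Flox_BSA), 65.48, 66.34 and 72.22 (Flox_PA), 84.4, 78.25 and 93.0 (HKO_BSA) and 120.4, 94.29 and 92.14 (HKO_PA). All 6 HKO libraries lay above all 6 Flox libraries. The log2 change was 0.57 in PA (SE 0.13, adjusted p = 0.00537), 0.45 without HKO_PA 1 (adjusted p = 0.0158), and 0.27 on TPM (adjusted p = 0.0569). Eif3m (chr2:104999656-105017080, minus strand) measured 35.5, 32.49 and 36.0 FPKM (Flox_BSA), 30.07, 25.82 and 25.32 (Flox_PA), 26.87, 49.39 and 55.38 (HKO_BSA) and 83.33, 47.25 and 33.03 (HKO_PA). The 3 HKO_PA libraries lay above the Flox_PA libraries but lay far apart from each other. The log2 change was 0.89 (SE 0.29, adjusted p = 0.0306) and 0.53 without HKO_PA 1 (adjusted p = 0.141). The call was also lost without any one of Flox_PA 1, 2, 3 or HKO_PA 2 (adjusted p from 0.0505 to 0.0905). On TPM, with a length trend removed, with no filter on low values and with the replicate number as a block it did not pass either. The Eif3m call passed in 11 of 20 alternatives, among them the fit without both HKO libraries numbered 1 (adjusted p = 0.00999). The 11 other eIF3 genes passed in no comparison, with Eif3e closest (HKO against Flox in PA, log2 0.79, adjusted p = 0.0517).

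Of the eIF4A helicase genes, Eif4a2 was lower in HKO with BSA and Eif4a1 higher in HKO with PA. Eif4a2 (chr16:23107444-23114136, plus strand) measured 29.93, 31.01 and 26.72 FPKM in Flox_BSA and was lower in every other library: 17.31, 15.36 and 14.25 (Flox_PA), 11.96, 20.58 and 21.13 (HKO_BSA) and 21.35, 16.28 and 10.57 (HKO_PA). Only the genotype difference in BSA passed (log2 -0.72, SE 0.23, adjusted p = 0.0448), and PA in Flox gave log2 -0.86 with adjusted p = 0.0867. The call was lost without any one of Flox_BSA 1, 2, 3 or HKO_BSA 1, with adjusted p from 0.068 to 0.14 (log2 -0.47 without HKO_BSA 1), and under a length correction (adjusted p = 0.0632). It held without both HKO libraries numbered 1 (log2 -0.47, adjusted p = 0.0295). Like Eif3a, this gene had its 3 highest values in the 3 Flox_BSA libraries.

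Eif4a1, the main eIF4A gene (chr11:69666936-69672423, minus strand), measured 292.6, 279.4 and 353.2 FPKM (Flox_BSA), 271.0, 263.2 and 275.9 (Flox_PA), 226.3, 301.9 and 338.3 (HKO_BSA) and 422.2, 351.7 and 348.4 (HKO_PA). The HKO_PA libraries lay above the Flox_PA libraries (log2 0.46, SE 0.16, adjusted p = 0.0393). The call was lost when any of Flox_PA 1, 2, 3 or HKO_PA 1, 2 was left out (adjusted p from 0.0572 to 0.122), in limma-voom (adjusted p = 0.101), on TPM (log2 0.16, adjusted p = 0.399) and with quantile normalization (log2 0.17, adjusted p = 0.386). It held without both HKO libraries numbered 1 (log2 0.37, adjusted p = 0.0191). A processed copy, Eif4a-ps4, had a mean of 194.1 FPKM and a log2 change of 0.41 in the same comparison (adjusted p = 0.0564), so how reads were split between the copies bears on Eif4a1. Eif4a3, a core protein of the exon junction complex, had group means of 48.8 to 60.26 FPKM, and neither it nor the helicase cofactor genes Eif4b and Eif4h passed anywhere.

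Of the cap-binding genes, Eif4e3 passed, as lower in HKO with either treatment. It encodes a relative of eIF4E that binds the cap in an atypical way. It lies at chr6:99625135-99666771 (minus strand) and measured 2.991, 3.519 and 3.419 FPKM (Flox_BSA), 4.247, 4.279 and 4.0 (Flox_PA), 1.588, 1.74 and 1.774 (HKO_BSA) and 1.095, 1.92 and 2.08 (HKO_PA). Every HKO library lay below every Flox library. The log2 change was -0.67 in BSA (SE 0.14, adjusted p = 0.00337) and -0.96 in PA (SE 0.14, adjusted p = 0.000166), and both passed in 19 of 19 alternatives. At these low levels the log2(FPKM + 1) scale understates the change. Of its exon bases 14.8% are shared with the protein-coding gene Gm20696 on the same strand, so part of these reads cannot be given to Eif4e3 with certainty. Macrophage marker sums were lower in the same libraries, and their part in this difference was not tested. The main cap-binding gene Eif4e had means of 23.5 ± 2.51, 18.23 ± 1.16, 23.49 ± 7.99 and 27.62 ± 5.49 FPKM in Flox_BSA, Flox_PA, HKO_BSA and HKO_PA, and the translational repressor Eif4e2 50.84, 56.7, 48.52 and 50.28 FPKM. Neither passed, though Eif4e came to adjusted p = 0.0616 for HKO against Flox in PA (log2 0.56).

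**Figure D3:**
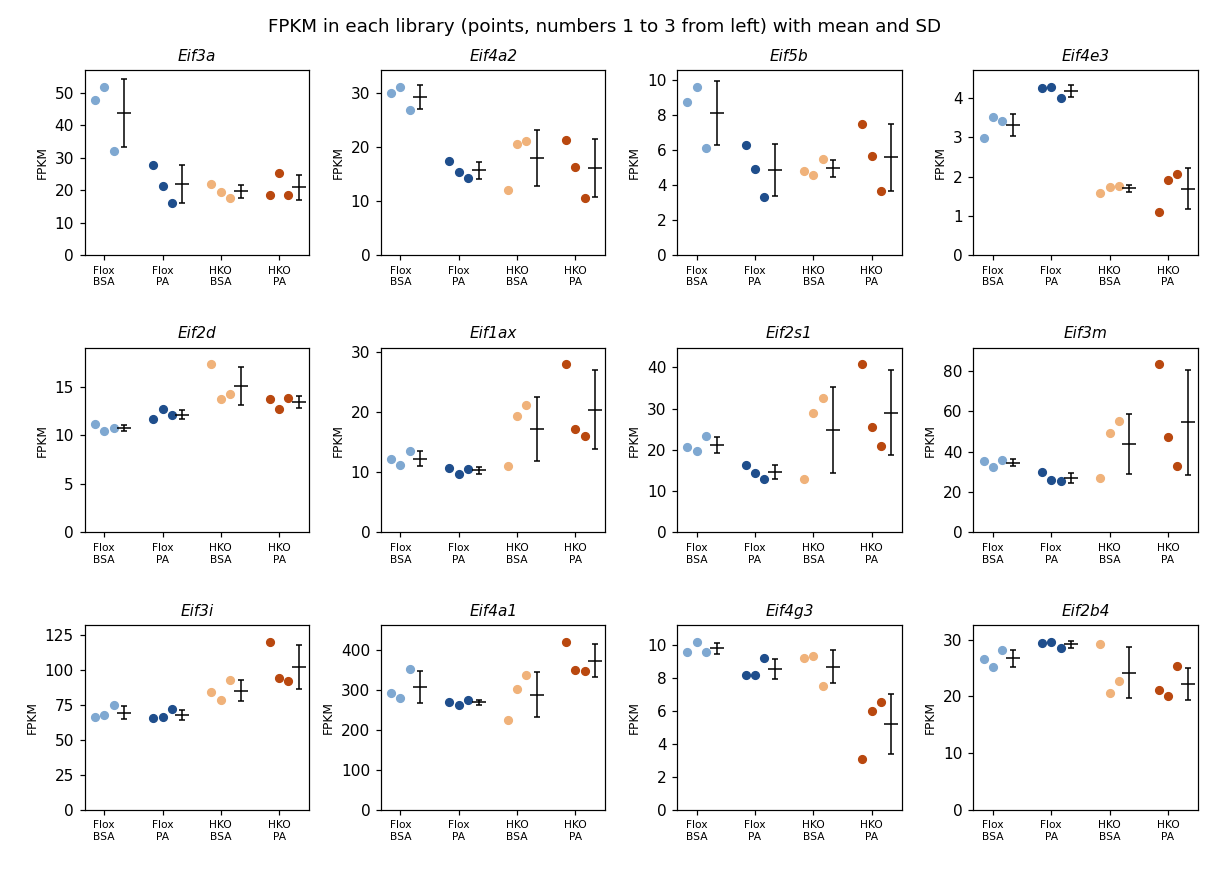
FPKM in each library (points, numbers 1 to 3 from the left within a group) with mean ± SD for the 11 initiation factor genes that passed in a comparison and for Eif5b; each vertical axis starts at 0. Eif3a and Eif4a2 are high only in Flox_BSA, Eif4e3 is low in all 6 HKO libraries, and HKO_BSA 1 and HKO_PA 1 lie at opposite ends of the HKO values of Eif1ax, Eif2s1 and Eif3m.

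The scaffold gene Eif4g3 (chr4:137993022-138208508, plus strand) was lower in HKO with PA. It measured 9.572, 10.21 and 9.605 FPKM (Flox_BSA), 8.198, 8.209 and 9.216 (Flox_PA), 9.208, 9.328 and 7.536 (HKO_BSA) and 3.101, 5.973 and 6.53 (HKO_PA). The HKO_PA libraries were the 3 lowest of the 12, with HKO_PA 1 lowest. The log2 change was -0.67 (SE 0.19, adjusted p = 0.0157), -0.40 without HKO_PA 1 (adjusted p = 0.0334; leaving out HKO_BSA 1 as well gave 0.0124), and did not pass without Flox_PA 3 (adjusted p = 0.0615). The main scaffold gene Eif4g1 had means of 88.14, 97.25, 100.4 and 69.08 FPKM in Flox_BSA, Flox_PA, HKO_BSA and HKO_PA, with 37.93 FPKM in HKO_PA 1 against 71.0 and 98.3 in the other HKO_PA libraries. Eif4g2, which lacks the eIF4E site, had means of 44.62, 32.04, 38.79 and 34.48 FPKM, and neither gene passed. Without HKO_PA 3, both Eif4g1 and Eif4g3 passed as lower for PA against BSA in HKO.

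The eIF4E-binding repressors passed in no comparison. Eif4ebp1 was the most abundant, at 354.7 ± 16.1, 419.4 ± 29.0, 359.4 ± 88.9 and 476.7 ± 88.9 FPKM in Flox_BSA, Flox_PA, HKO_BSA and HKO_PA. Eif4ebp2 measured 24.64 ± 0.251, 34.89 ± 3.44, 29.87 ± 4.53 and 25.51 ± 7.59 FPKM. Its 3 Flox_PA libraries lay above its 3 Flox_BSA libraries (log2 0.48, SE 0.19, adjusted p = 0.244), and the PA change in HKO had the opposite sign (log2 -0.25). Eif4enif1, which carries eIF4E into the nucleus and to RNA granules, had group means of 3.697 to 5.029 FPKM.

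The factors that act at the end of initiation did not pass either. Eif5, the GTPase-activating protein of eIF2, had group means of 40.23 to 45.47 FPKM. Eif5b measured 8.726, 9.591 and 6.097 FPKM (Flox_BSA), 6.284, 4.947 and 3.327 (Flox_PA), 4.79, 4.578 and 5.501 (HKO_BSA) and 7.478, 5.67 and 3.639 (HKO_PA). Its Flox_BSA libraries all lay above its HKO_BSA libraries (log2 -0.60, SE 0.23, adjusted p = 0.0878), and 16.8% of its exon bases overlap Rev1 on the opposite strand. Eif5b passed as lower in BSA on TPM, in limma-voom and with a GC trend removed.

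The changes of the initiation factor genes with PA in Flox varied with the base composition of their transcripts. Across the 47 genes the rank correlation (Spearman) of the PA change with GC content was 0.58 in Flox, against 0.47 over 9736 genes. In HKO it was -0.03 against -0.25, for HKO against Flox in BSA -0.06 against 0.02, in PA -0.47 against -0.36, and for the interaction -0.60 against -0.51. With gene length the correlation of the PA change was -0.39 in Flox and -0.44 in HKO, against -0.13 and -0.43 over all genes. For HKO against Flox it was -0.04 in BSA and 0.01 in PA, against -0.21 and -0.32, and for the interaction 0.09 against -0.23. Genes are not independent replicates, all points share the same libraries, and the values are descriptions. Split at the median GC content of the initiation factor genes (50.1%), 18 of the 23 with lower GC had a negative PA change in Flox (median log2 -0.35, against -0.14 for all genes under that GC content), and 16 of the 24 with higher GC had a positive one (median 0.06 against 0.11). Eif3a has 43.44% GC, Eif4a2 43.28%, Eif2s1 40.79%, Eif3m 43.33% and Eif1ax 39.71%, while Eif4g3 has 54.47%, Eif3i 54.72% and Eif2b4 56.84%. The other genes that passed in a comparison are Eif4e3 with 45.05%, Eif4a1 with 48.08% and Eif2d with 52.76%.

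Single libraries differed in the same way. The median deviation of the 23 lower-GC genes from their mean over 12 libraries was -0.40 (log2) in HKO_BSA 1, against 0.21 and 0.17 in HKO_BSA 2 and 3. It was 0.35 in HKO_PA 1, 0.14 in HKO_PA 2 and -0.21 in HKO_PA 3. In Flox_PA it was 0.01, -0.25 and -0.37, and in Flox_BSA 0.17, 0.01 and 0.09. The spread between libraries of one HKO group was thus at least as large as the Flox PA change of these genes, and the part of base composition in the changes above was not tested further than by the fits with a GC trend removed. With that trend removed, 10 of the 13 called pairs passed. For the 24 higher-GC genes the median deviation was 0.12, -0.19 and -0.05 in HKO_BSA 1 to 3. In HKO_PA 1 to 3 it was 0.03, -0.12 and 0.09.

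**Figure D4:**
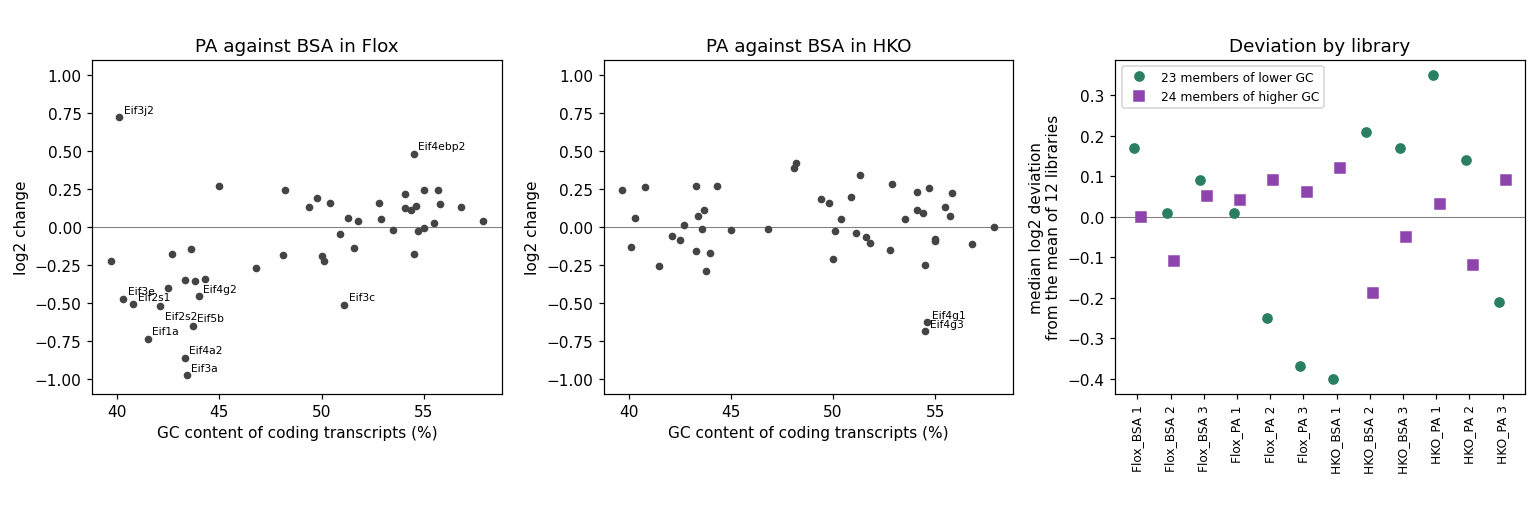
Left and middle: log2 change with PA in Flox and in HKO against GC content of the coding transcripts (%), 1 point per initiation factor gene, with names where the change exceeds 0.45 in size. Right: median log2 deviation of the 23 lower-GC and 24 higher-GC genes in each library; the lower-GC genes run from -0.40 in HKO_BSA 1 to 0.35 in HKO_PA 1.

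The genes that control eIF2 and read its state were taken from lists of related genes. Of 12 genes for eIF2 kinases, phosphatases and their regulators, none passed with PA in limma or limma-voom in either genotype (0 with an unadjusted p under 0.05 in Flox and 3 in HKO). With BSA, 2 were higher in HKO and 2 lower (33.3% against 20.5% of all genes), but 0 and 2 in limma-voom. Eif2ak2, the kinase PKR, fell from 3.709, 3.745 and 2.053 FPKM in Flox_BSA to 1.336, 1.315 and 0.5212 in HKO_BSA (log2 -1.02, SE 0.23, adjusted p = 0.00647). Ppp1r15a, the stress-induced phosphatase subunit GADD34, fell by 0.45 (adjusted p = 0.0184). Eif2ak3, the kinase PERK, rose by 0.44 (adjusted p = 0.0185), and Dnajc3, an inhibitor of these kinases, by 0.85 (adjusted p = 0.0438). Neither of these higher genes passed on TPM or in limma-voom. With PA 5 passed (41.7% against 35.7% of all genes): 1 was higher, Dnajc3 (log2 0.94), and 4 were lower, Eif2ak2 (log2 -0.68), Ppp1r15a (log2 -0.38), its constitutive counterpart Ppp1r15b (log2 -0.52) and Gcn1l1, the activator of the kinase GCN2 (log2 -1.12, SE 0.29, adjusted p = 0.0099), which measured 11.75, 12.76 and 15.27 FPKM in Flox_PA and 2.594, 6.565 and 9.24 in HKO_PA. Gcn1l1 in PA and Eif2ak2 in BSA held when any one library was left out, but the Gcn1l1 change was -0.69 without both HKO libraries numbered 1, HKO_PA 1 being its lowest library. Leaving out 1 library ended the calls of Ppp1r15a (Flox_BSA 1, HKO_BSA 2 or HKO_BSA 3), Eif2ak3 (Flox_BSA 1 or HKO_BSA 2) and Dnajc3 (each Flox_BSA library, HKO_BSA 2 or HKO_BSA 3), with adjusted p up to 0.104, 0.106 and 0.174. With PA, single libraries ended the calls of Dnajc3 and Ppp1r15b (Flox_PA 3 or HKO_PA 1), Eif2ak2 (Flox_PA 1, Flox_PA 2, HKO_PA 1 or HKO_PA 3) and Ppp1r15a (Flox_PA 2, Flox_PA 3, HKO_PA 1 or HKO_PA 2), with adjusted p up to 0.141. Eif2ak2 in PA also did not pass without both HKO libraries numbered 1 (log2 -0.55), nor Dnajc3 in PA on TPM.

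Of 14 genes in the list of ATF4 and its targets, the transcripts that rise when eIF2 is phosphorylated, Atf3 rose with PA in both genotypes. It measured 10.67, 10.28 and 12.31 FPKM (Flox_BSA), 23.29, 29.1 and 24.62 (Flox_PA), 18.4, 18.11 and 19.15 (HKO_BSA) and 41.05, 42.38 and 47.28 (HKO_PA). The 4 groups did not overlap. Its log2 change with PA was 1.14 in Flox (SE 0.13, adjusted p = 0.000328) and 1.19 in HKO (SE 0.13, adjusted p = 0.000159), and it was higher in HKO by 0.70 in BSA and 0.74 in PA. Atf4 itself, which is controlled mainly through its translation, ranged from 202.1 to 240.9 FPKM and passed in none. Chac1, a glutathione-degrading enzyme, and Sesn2, a stress-induced inhibitor of mTORC1, were lower in HKO with both treatments (log2 -0.62 and -0.54 in BSA, -0.91 and -0.66 in PA). With BSA the Sesn2 call (adjusted p = 0.0318) was lost without any one of the Flox_BSA libraries, HKO_BSA 2 or HKO_BSA 3, with adjusted p up to 0.14. The amino acid transporter subunit gene Slc3a2 (log2 -0.60, adjusted p = 0.00908) and the tRNA synthetase gene Aars (log2 -0.53, adjusted p = 0.0424) were lower in HKO with PA, Aars not without any one Flox_PA library, HKO_PA 1 or HKO_PA 2 (adjusted p up to 0.169), nor without both HKO libraries numbered 1 (log2 -0.28). In all, the list had 1 gene higher and 0 lower with PA in Flox, 2 and 0 in HKO, and 1 higher and 2 lower (BSA) and 1 higher and 4 lower (PA) for HKO against Flox. With PA that is 7.14% of the list in Flox and 14.3% in HKO, against 2.21% and 2.94% of all genes. The PA change was negative for 8 of the 14 genes in Flox (median log2 -0.09) and for 7 in HKO (median -0.04). For the genotype the genes that passed were 21.4% and 35.7% of the list, against 20.5% and 35.7% of all genes. In limma-voom 1 was higher and 5 lower in BSA and 1 and 6 in PA. Ddit3, the factor CHOP, passed with PA in HKO (log2 0.89, adjusted p = 0.0363), but not without HKO_BSA 1, HKO_BSA 3, HKO_PA 1 or HKO_PA 2 (adjusted p up to 0.089), without both HKO libraries numbered 1 (log2 0.64), on TPM or in limma-voom.

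Genes of the arm that controls eIF4E were taken from another list. Of 15 genes of mTORC1 and eIF4E signalling, none passed with PA in Flox in limma or limma-voom (2 at an unadjusted p under 0.05). With PA in HKO 1 was lower, 6.67% against 2.94% of all genes called. It was Mknk1, a kinase that phosphorylates eIF4E (log2 -0.76, adjusted p = 0.0181). Mknk1 did not pass without HKO_BSA 2 or HKO_PA 2 (adjusted p up to 0.0687). For HKO against Flox, 1 was higher in BSA, 6.67% against 20.5% of all genes called. It was Deptor, an inhibitor of mTOR (log2 0.49, adjusted p = 0.0441). Deptor did not pass without Flox_BSA 1, Flox_BSA 3 or any HKO_BSA library (adjusted p up to 0.169), on TPM or in limma-voom. In PA, 1 was higher and 3 were lower, 26.7% against 35.7% of all genes, and in limma-voom 1 was higher and 6 lower. The kinase gene Mtor (log2 -0.64, adjusted p = 0.0201), its partner Rptor (log2 -0.71, adjusted p = 0.0171) and Larp1, which holds back ribosomal protein mRNAs (log2 -0.69, adjusted p = 0.0232), were lower. They changed by -0.38, -0.41 and -0.38 without both HKO libraries numbered 1. Mtor and Larp1 did not pass without Flox_PA 2, Flox_PA 3 or HKO_PA 1, nor Rptor without Flox_PA 3 (adjusted p up to 0.0865). Rps6, the ribosomal protein at the end of this pathway, was higher, with 353.9, 322.5 and 350.2 FPKM in Flox_PA and 966.2, 629.5 and 614.4 in HKO_PA (log2 1.07, SE 0.26, adjusted p = 0.00612).

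Of 14 tested accessory initiation proteins, 2 were lower in HKO with BSA, and with PA 1 was higher and 4 were lower, 14.3% and 35.7% against 20.5% and 35.7% of all genes. Pabpc1, the poly(A)-binding protein that joins the mRNA tail to eIF4G, was lower in both: 237.8, 238.9 and 234.5 FPKM (Flox_BSA) and 222.7, 215.9 and 224.7 (Flox_PA) against 157.4, 177.5 and 169.7 in HKO_BSA and 147.0, 159.9 and 145.6 in HKO_PA. All HKO libraries were below all Flox libraries (log2 -0.50 and -0.55, adjusted p = 0.00608 and 0.00232), and both calls passed in 20 of 20 alternatives. The other lower gene with BSA was Cyfip1, an eIF4E-binding protein (log2 -0.48, adjusted p = 0.0168; not passed without Flox_BSA 1 or Flox_BSA 2, adjusted p up to 0.0825). The Pabpc1 relative Pabpc4 (log2 -0.58, adjusted p = 0.00968) and Abcf1, which binds eIF2 (log2 -0.61, adjusted p = 0.00938), were lower in PA, as was Gigyf1, a partner of Eif4e2 (log2 -0.60, adjusted p = 0.0378; not passed without any one Flox_PA library, HKO_PA 1 or HKO_PA 2, adjusted p up to 0.162, nor without both HKO libraries numbered 1, log2 -0.34). The PABP inhibitor gene Paip2 was higher (log2 0.70, adjusted p = 0.0185; not passed without Flox_PA 3 or HKO_PA 1, adjusted p up to 0.0678, nor on TPM), with a log2 change of 0.44 without both HKO libraries numbered 1. The eIF5A-modifying enzyme genes Dhps and Dohh passed in no comparison, with 0 at an unadjusted p under 0.05 and 0 in limma-voom. Cytosolic ribosomal protein genes, the partners of the factors, had 49 of 79 tested genes higher and 0 lower for HKO against Flox in PA (62% against 16.9% of all genes higher, median log2 0.60), 26 on TPM, 31 higher and 2 lower with quantile normalization and 45 without both HKO libraries numbered 1. The 79 were taken by symbol and include Rps19bp1, which encodes a binding protein of Rps19 and not a ribosomal protein. It is among the 49 (log2 0.61, limma adjusted p = 0.0113). In the other 4 comparisons 0 of the 79 passed in limma or limma-voom, with 1, 13, 5 and 10 at an unadjusted p under 0.05 in the order of PA in Flox, PA in HKO, genotype in BSA and interaction. Among the initiation factor genes, by contrast in count only, 5 were higher and 3 lower in that comparison.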

How the data were processed

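RNA was sequenced from 12 libraries of primary hepatocytes, and the authors deposited FPKM values, 1 column per library, with the gene length they divided by. The build is GRCm38 (mm10) per the submitters' processing notes; the aligner, the counter, the annotation release and the use of strand are not stated in any source used here. Depth was recovered by multiplying by length: up to 1000 reads, 100% of values came within 0.01 of a whole number of reads.

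Values were tested as log2(FPKM + 1) for genes averaging 1 FPKM or more, in 1 limma model of 4 group means (limma 3.58.1, R 4.3.3, trended variance prior), with two-sided p-values adjusted by Benjamini-Hochberg over 9743 genes and a threshold of 0.05. The 4 groups shared 1 estimate of the spread per gene, so libraries outside a comparison also bear on its p-values. The fit was tested on simulated data. Changes understate those of low genes. The members, roles, lists and alternatives were chosen with earlier results of these data known. Named are all members that passed, each library given, paralog sets, the 2 highest and 2 lowest members that did not pass, members under the filter, and up to 4 passing genes per related list and comparison; where 5 passed, the fifth was added after its values were seen. GC content came from coding transcripts of GENCODE M21, and 47 of 50 members had the same coordinates there. Promoters came from RefSeq.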

Additional observations from a re-analysis of the deposited data

How the results depend on the processing

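Over the alternatives, 207 of the repeated tests of the 13 called pairs passed, 52 did not, and 0 changed sign. The share of all genes tested that passed stands in parentheses after each count. For PA in Flox the count of initiation factor genes was 1 (2.21%), but 0 with no filter on low values (0.995%), 21 with array weights (37.4%), 11 with only the groups compared (15.8%) and 9 without both HKO libraries numbered 1 (13.9%). It was 0 to 1 with single libraries left out. For PA in HKO it was 0 (2.94%), but 1 with a GC trend removed, an alternative added after seeing the data (7.15%), 7 with array weights (15.7%) and 4 without both HKO libraries numbered 1 (6.97%), and 0 to 2 with single libraries left out. For HKO against Flox in BSA it was 4 (20.5%), but 7 on TPM (20.2%), 7 in limma-voom (20.4%), 8 with a GC trend removed (27.3%), 25 with array weights (59.2%) and 13 without both HKO libraries numbered 1 (36.7%), and 2 to 5 with single libraries left out. For HKO against Flox in PA it was 8 (35.7%), but 5 with no filter (14.9%), 15 with quantile normalization (38.9%), 14 on TPM (42.4%), 13 in limma-voom (37.6%), 22 with array weights (51.4%) and 13 without both HKO libraries numbered 1 (37.6%). Single libraries left out gave 3 to 16, the lowest without Flox_PA 3 (23.4%) and the highest without HKO_PA 3 (43.1%). For the interaction it was 0 (0.267%), but 4 with array weights (17.1%), and 0 to 0 with single libraries left out. Some fits hold fewer genes or samples, and the fit of only the groups compared does not share its spread with the other groups. Beyond that, the cause of the differing counts was not tested. Fewest of the 13 pairs passed with no filter (7) and on TPM (8). With the replicate number as a replicate block the counts were 1, 0, 4, 7 and 0 in that order, with 11 of the 13 pairs passing (Eif4a2 and Eif3m did not). The labels number the libraries within a genotype, and whether a number marks a shared preparation is not stated. Same-numbered BSA and PA libraries had correlations of 0.2, -0.02 and 0.32 in Flox and -0.24, 0.35 and -0.48 in HKO. Over all groups these ran from -0.48 to 0.36, so the numbers were not used as pairs in the main fit. With the number as a block within genotype, the counts were 1 (1.13%) for PA in Flox, 0 (1.16%) for PA in HKO and 0 (0.0308%) for the interaction. At 15.02 to 18.42 M reads per library, the 3 members under 1 FPKM were too low to test.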

Other observations

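Genes of the later steps of translation were also compared. Of 7 tested cytosolic elongation factor genes, 2 were higher and 1 lower in HKO than in Flox with PA in limma (42.9% against 35.7% of all genes), and 1 and 2 in limma-voom. Eef1b2, an exchange factor of the tRNA carrier eEF1A, was higher (log2 0.65, SE 0.14, adjusted p = 0.00373) and passed in 20 of 20 alternatives. The other higher gene, Eef1e1 (log2 0.365, adjusted p = 0.0447), passed in 10 of 20. It did not pass on TPM, in limma-voom or without both HKO libraries numbered 1. Eef2, the translocase, was lower (log2 -0.63, SE 0.18, adjusted p = 0.0176), but did not pass without Flox_PA 2, Flox_PA 3 or HKO_PA 1 (adjusted p up to 0.0582). Of 5 tested genes of termination and ribosome recycling 1 was lower (20% against 35.7% of all genes called). It was Pelo, which rescues stalled ribosomes (log2 -0.70, SE 0.18, adjusted p = 0.0103). Of 7 tested mitochondrial translation factor genes 2 were higher, 28.6% against 35.7% of all genes called and 16.9% higher. They were Mrrf, the mitochondrial ribosome recycling factor (log2 0.89, SE 0.19, adjusted p = 0.00274), and Mtif3, a mitochondrial initiation factor (log2 0.48, SE 0.16, adjusted p = 0.0299). Mtif3 did not pass without Flox_PA 2, Flox_PA 3, HKO_PA 2 or HKO_PA 3, on TPM or in limma-voom. In the other 4 comparisons none of these 3 lists held a gene that passed in limma or in limma-voom. At an unadjusted p under 0.05 stood 2 elongation factor genes with PA in HKO and 2 for the interaction, and 1 mitochondrial gene each with PA in Flox and between genotypes in BSA.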
